A study of Bos taurus with 30 samples.

Results

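The comparison described here set the corpus luteum on day 4 of the estrous cycle, 24 h after prostaglandin F2α (PGF2α), against the corpus luteum on day 11 without PGF2α. It asked what the young gland, 1 day after a luteolytic signal, already shared with the mature gland and what it lacked. The arrays were chosen by their titles, not by any measured value: 5 day 4 24 h arrays and 5 day 11 0 h arrays, 10 of the 30 in the study, and all 24016 probe sets other than the array's controls were compared. The animals were Angus crossbred heifers in a completely random 2 × 3 factorial design, with 1 gland and 1 array per heifer. The day 4 24 h heifers had received PGF2α on day 4, and the day 4 0 h and day 11 0 h heifers had received saline as controls. The 5 untreated day 4 glands are given beside the comparison, because they show where the young gland stood at 0 h on day 4. None of the 6 groups was an untreated young gland at 24 h. Contrasts with the untreated day 4 glands therefore cannot tell PGF2α apart from the passing of 24 h. RNA of whole luteal tissue was read on Affymetrix bovine arrays, and values are log2 signals, so that 1 unit is a 2-fold difference.

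The corpus luteum forms from the theca and granulosa cells of the ovulated follicle and secretes progesterone, the hormone that maintains pregnancy. It takes up cholesterol from lipoproteins, moves it into mitochondria and converts it to pregnenolone and then to progesterone, under the drive of luteinizing hormone. Its capillary bed and its cells expand during the first days of the cycle, and the mature gland is dense in endothelial cells and holds resident macrophages. PGF2α ends the life of the mature bovine gland, whereas the early gland is known not to regress after the same dose.

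The steroidogenic identity of both groups was plain from the arrays. All 8 luteal steroidogenic markers (among them STAR, CYP11A1, HSD3B1 and OXT) were bright in both groups, with a mean level over the 8 of 12.42 to 12.54 in the day 4 24 h glands and 12.52 to 12.67 in the day 11 glands. The 3′ minus 5′ signal of the actin control was 2.08 in the day 4 24 h glands and 2.10 in the day 11 glands (exact two-sided permutation p = 0.929, with 0.0079 the smallest p that 5 against 5 arrays allow). Day 4 24 h replicate 1 stood apart from its group. When each array was placed on the line between the mean untreated day 4 gland (0) and the mean untreated day 11 gland (1), using all probe sets, the day 4 24 h replicates 1 to 5 lay at 0.0855, 0.498, 0.394, 0.682 and 0.230. The untreated day 4 glands lay between -0.0256 and 0.143 and the day 11 glands between 0.740 and 1.04, each placed with itself left out of its group mean. Replicate 1 thus sat among the untreated day 4 glands and replicate 4 closest to the day 11 glands, and day 11 replicate 2 was the day 11 gland nearest to the young ones. Many of the counts and calls below are given also without 1 of these arrays, though not all.

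**Figure D1:**
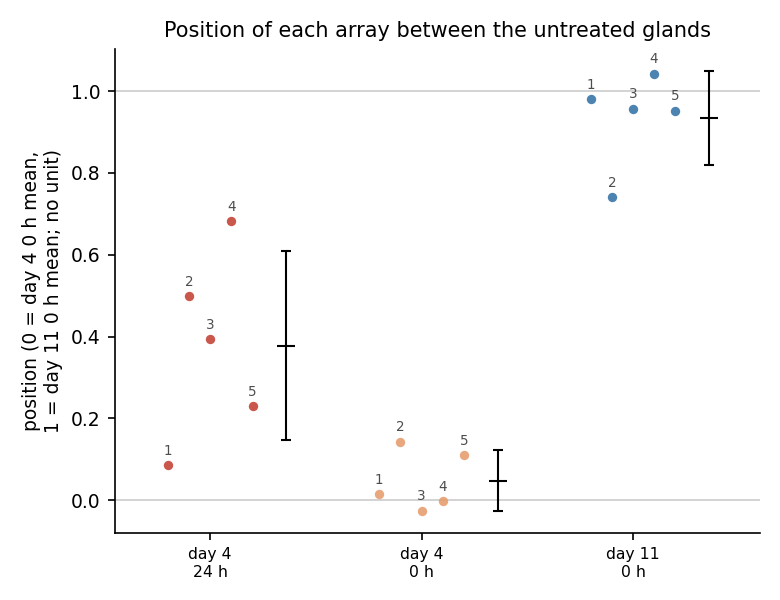
Position of each array (points, with replicate numbers) on the line from the mean day 4 0 h gland (0) to the mean day 11 0 h gland (1) across all probe sets, with the mean and SD of 5 arrays beside each group. The 5 day 4 24 h glands spread from 0.0855 to 0.682, while the untreated day 4 glands stay at or under 0.143 and the day 11 glands at or above 0.740.

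Of 24016 probe sets, 4606 (19.2%) differed between the day 4 24 h and the day 11 glands at an adjusted p under 0.05 (limma, all 30 arrays in 1 fit, Benjamini-Hochberg adjustment over all probe sets). Of these, 2597 (10.8%) were higher and 2009 (8.37%) were lower in the day 4 24 h glands. Most differences were small: 282 of the higher and 279 of the lower probe sets differed by at least 1 log2 unit, and 33 and 21 by at least 2. A missed threshold does not show that the glands were alike, so likeness was read from the 95% interval of the difference. That interval lay within 1 log2 unit of 0 for 21996 probe sets (91.6%) and within 0.5 units for 14970 (62.3%). Counted by genes, with each of 9155 genes represented by its brightest probe set, 17.2% were higher and 9.02% lower, 16.2% had 5 against 5 values that did not overlap, and 89.7% had an interval within 1 unit. The median difference over all genes was 0.03. These shares are the background against which the gene lists below are read. Without day 4 24 h replicate 1 the number of probe sets called was 3431, and without replicate 4 it was 4922.

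**Figure D2:**
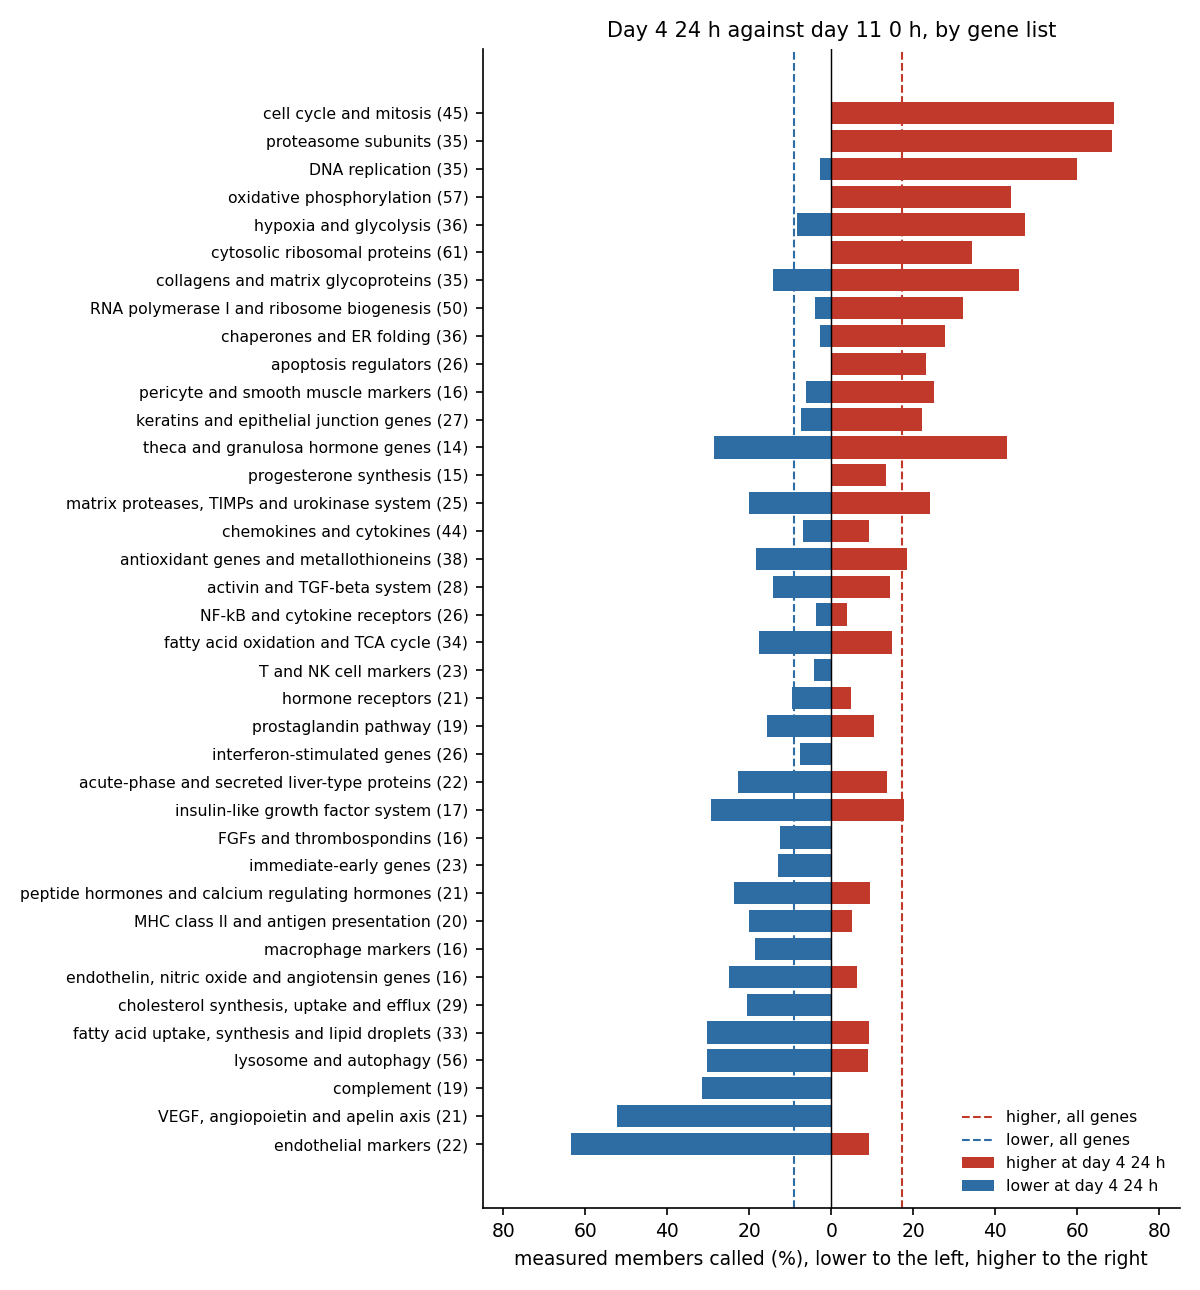
Share of the measured members of each gene list (number in parentheses, lists with 14 or more members) called higher (right, red) or lower (left, blue) in the day 4 24 h glands than in the day 11 glands, with dashed lines at the shares over all genes (17.2% and 9.02%). Cell cycle, proteasome and DNA replication lists lie at the top, endothelial, VEGF axis and complement lists at the bottom.

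Of 15 measured genes of progesterone synthesis, 2 were called higher and none lower (17.2% and 9.02% of all genes), and the median difference was -0.02. The interval lay within 1 log2 unit for 13 of the 15, no larger a share than the 89.7% of all genes. Under 11 of the alternatives 1 or 2 members were called lower. STAR was among them only in the fit to the 10 arrays alone, and the members called lower under the other alternatives are not named here. CYP11A1 (338048; numbers after a symbol are Entrez Gene identifiers), the enzyme that cleaves the cholesterol side chain, had log2 signals of 13.48, 13.37, 13.24, 13.49 and 13.38 in the day 4 24 h glands, against 13.53, 13.41, 13.45, 13.41 and 13.55 in the day 11 glands. The values of the groups overlapped, and the interval of the difference, -0.22 to 0.06, was narrow on either side of 0. HSD3B1, which makes progesterone from pregnenolone, averaged 13.58 ± 0.05 in the day 4 24 h glands and 13.71 ± 0.07 in the day 11 glands (here and below, ± after a mean is the SD of 5 arrays). All 5 HSD3B1 values lay below those of the mature glands, but the difference of -0.13 was not called (adjusted p = 0.706). STAR (281507), which carries cholesterol to the inner mitochondrial membrane, had signals of 12.79, 13.17, 13.22, 13.21 and 13.06 in the day 4 24 h glands, against 13.74, 13.48, 13.54, 13.60 and 13.66 in the day 11 glands. No STAR value of one group overlapped the other, with replicate 1 lowest, and the difference of -0.51 ± 0.21 (± is the standard error for every difference) missed the threshold (adjusted p = 0.0927). In the fit restricted to the 10 arrays it passed, with an adjusted p of 0.00679.

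Of 5 measured transcription factors of steroidogenesis, 3 had differences near 0 and 2 had intervals wholly below 0. The difference was -0.01 for GATA4 (interval -0.29 to 0.26), -0.02 for GATA6 (-0.29 to 0.24) and 0.03 for NR5A2 (-0.55 to 0.61). It was -0.51 for NR5A1 (interval -0.88 to -0.13, adjusted p = 0.0511) and -0.50 for NR0B1 (-0.89 to -0.12, adjusted p = 0.0612), neither of which was called. One other probe set of NR5A1 was called lower (-0.51, adjusted p = 0.0469). The 2 members that were higher in the young gland were TSPO, an outer mitochondrial membrane protein that binds cholesterol, and HSD11B1, which regenerates active glucocorticoid. TSPO averaged 10.48 ± 0.19 in the day 4 24 h glands and 9.23 ± 0.33 in the day 11 glands, a 2.38-fold difference (1.25 ± 0.17, adjusted p = 7.22e-06) with no overlap. HSD11B1 averaged 8.72 ± 0.34 in the day 4 24 h glands and 7.29 ± 0.66 in the day 11 glands (1.43 ± 0.33, adjusted p = 0.00253), and its day 11 replicate 2 at 8.22 overlapped the lowest young gland. In the untreated day 4 glands both stood at similar levels, 10.33 ± 0.25 and 8.51 ± 0.63.

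**Figure D3:**
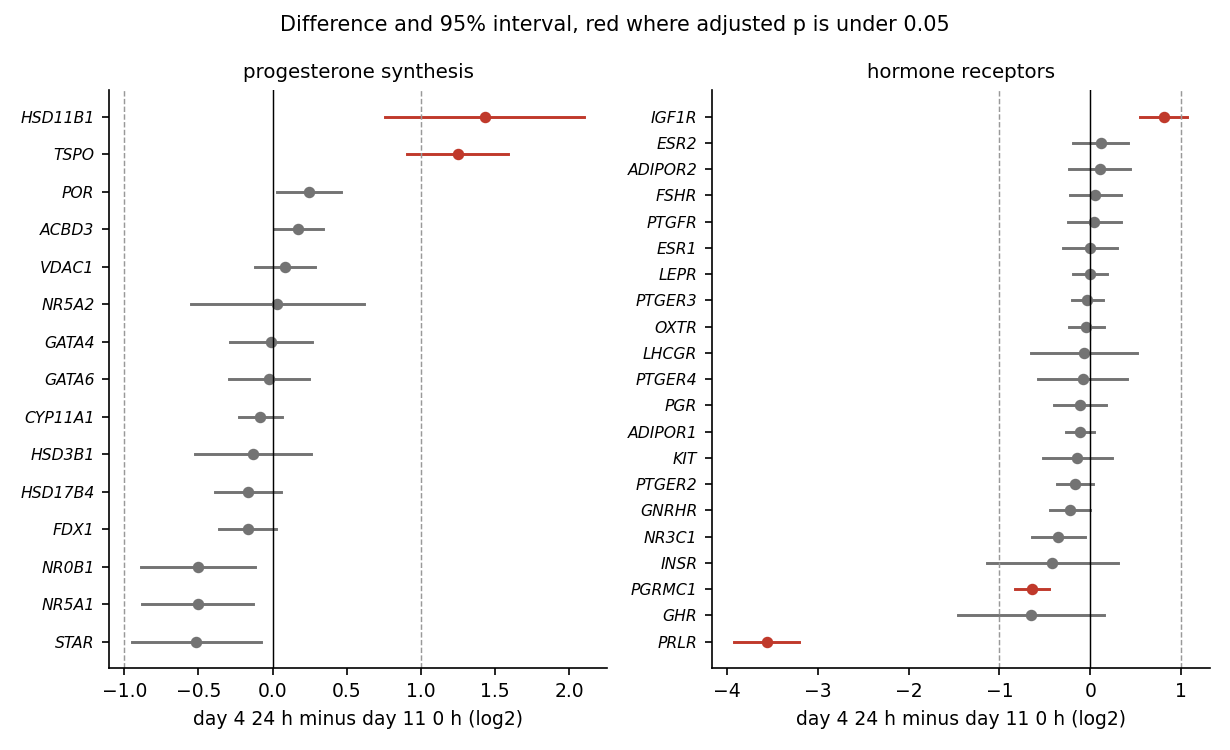
Difference (day 4 24 h minus day 11 0 h, log2 units, points) with its 95% interval (lines) for the measured genes of progesterone synthesis and the hormone receptors, red where the adjusted p was under 0.05, with dashed lines at 1 unit either way. STAR, NR5A1 and NR0B1 lie to the left of 0 without passing the threshold, TSPO and HSD11B1 to the right, and PRLR far to the left of all other receptors.

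Among 21 measured hormone receptors, 1 was higher and 2 were lower (17.2% and 9.02% of all genes), and 17 intervals lay within 1 unit (89.7% of all genes). Of the 21, 10 were dim in the day 4 24 h glands, meaning a mean signal under 4.5, the 30th percentile of all probe sets. LHCGR (281900), the receptor of luteinizing hormone, had signals of 7.51, 7.93, 8.10, 7.62 and 8.08 in the day 4 24 h glands, against 7.48, 7.69, 7.62, 8.92 and 7.88 in the day 11 glands. The groups overlapped, with day 11 replicate 4 the brightest of all, and the interval ran over -0.65 to 0.52. In the untreated day 4 glands LHCGR averaged 6.70 ± 0.66, and the day 4 24 h glands were 1.15 ± 0.29 higher than those (adjusted p = 0.0163, from the contrast between the day 4 groups). Neither of the 2 other LHCGR probe sets was called in the day 4 24 h against day 11 contrast. The PGF2α receptor PTGFR averaged 11.51 ± 0.29 in the day 4 24 h glands and 11.47 ± 0.13 in the day 11 glands, with an interval of -0.25 to 0.34. KIT, the receptor of stem cell factor, differed by -0.14 (interval -0.52 to 0.24).

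PRLR (281422), the prolactin receptor, had signals of 3.99, 3.86, 4.31, 3.93 and 3.64 in the day 4 24 h glands, against 7.30, 7.31, 7.73, 7.67 and 7.55 in the day 11 glands. The day 4 24 h values were all in the dim range and the day 11 values all above 7, a difference of -3.56 ± 0.17, adjusted p = 4.72e-14. The untreated day 4 glands were equally dim at 4.09 ± 0.24. PGRMC1, a membrane protein linked to progesterone signalling, was also lower (-0.64 ± 0.09, adjusted p = 1.58e-05), and a second probe set of it was called the same way. IGF1R, the receptor of insulin-like growth factors, was the receptor called higher, at 6.81 ± 0.22 in the day 4 24 h glands and 6.00 ± 0.15 in the day 11 glands (0.81 ± 0.13, adjusted p = 4.44e-05). Averaged over all probe sets of the gene, the difference was 0.34 (adjusted p = 0.0283).

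Hormones of theca and granulosa origin differed in both directions, with 6 of 14 measured genes higher and 4 lower (17.2% and 9.02% of all genes). INSL3 (281870), a relaxin-family hormone of theca and luteal cells, had signals of 9.77, 9.16, 8.62, 9.68 and 9.15 in the day 4 24 h glands, against 9.78, 12.07, 12.54, 12.86 and 11.82 in the day 11 glands. The groups did not overlap, but day 11 replicate 1 equalled the brightest young gland to within rounding, while the other 4 mature glands were at least 2 units brighter (-2.54 ± 0.54, adjusted p = 0.00118). OXT, the oxytocin gene of large luteal cells, was near the top of the array's range in both groups and slightly higher in the young ones, 13.94 ± 0.07 in the day 4 24 h glands and 13.64 ± 0.10 in the day 11 glands (0.30 ± 0.07, adjusted p = 0.00324). INHA, the inhibin alpha subunit, was higher by 0.89 ± 0.19 (adjusted p = 0.00148). FST, the activin-binding follistatin, was lower (-1.18 ± 0.28, adjusted p = 0.00325), and so was SERPINE2, a protease inhibitor of granulosa cells (-1.05 ± 0.12, adjusted p = 1.41e-06).

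CYP17A1 (281739), the theca enzyme of androgen synthesis, set the day 4 24 h glands apart from both untreated groups. It had signals of 8.74, 9.0, 9.46, 9.12 and 8.54 in the day 4 24 h glands, against 6.26, 7.33, 5.97, 6.43 and 5.83 in the day 11 glands. All young glands were above the brightest mature gland, day 11 replicate 2, a 6.09-fold difference (2.61 ± 0.43, adjusted p = 9.42e-05). The untreated day 4 glands averaged 5.67 ± 0.98, so the day 4 24 h glands were 3.30 ± 0.43 above them too (adjusted p = 0.000205). CYP21A2, a steroid 21-hydroxylase, averaged 6.46 ± 0.63 in the day 4 24 h glands and 5.39 ± 0.56 in the day 11 glands (1.07 ± 0.37, adjusted p = 0.0384). Its call was lost without any 1 of 6 of the 10 arrays.

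Genes of cholesterol supply lay between the untreated young and the mature level as a list. Of 29 genes of cholesterol synthesis, uptake and efflux, none was higher and 6 were lower in the day 4 24 h glands than in the day 11 glands. Of all genes, 17.2% were higher and 9.02% lower. The median difference of the list was -0.22. In the untreated day 4 glands 21 of the 29 were lower than in the day 11 glands (17.9% of all genes were lower in that contrast), with a median of -0.61. The contrasts share arrays, so the mean level of the list is given for each group: 10.07 to 10.55 in the day 4 24 h glands, 9.82 to 10.02 in the untreated day 4 glands and 10.43 to 10.70 in the day 11 glands. SCARB1, the receptor that takes up high-density lipoprotein cholesterol, averaged 13.12 ± 0.15 in the day 4 24 h glands and 13.45 ± 0.13 in the day 11 glands (-0.33 ± 0.08, adjusted p = 0.00542), and 12.77 ± 0.12 in the untreated day 4 glands. TM7SF2, a sterol reductase of cholesterol synthesis, averaged 10.90 ± 0.61 in the day 4 24 h glands and 11.95 ± 0.28 in the day 11 glands (-1.05 ± 0.23, adjusted p = 0.00189), with the lowest young value in replicate 1 and the highest, at 11.68 in replicate 4, inside the mature range. APOE, a lipoprotein component, was lower (-1.26 ± 0.17, adjusted p = 7.82e-06). EBP, a sterol isomerase, was alike at 10.31 ± 0.34 in the day 4 24 h glands and 10.31 ± 0.27 in the day 11 glands (interval -0.38 to 0.39).

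Several genes of fatty acid handling were far below the mature level. In the list of fatty acid uptake, synthesis and lipid droplets 10 of 33 genes were lower and 3 higher (9.02% and 17.2% of all genes). The median was -0.28. LPL (280843), the lipase that frees fatty acids from circulating triglycerides, had signals of 8.85, 9.80, 8.76, 9.71 and 9.86 in the day 4 24 h glands, against 12.10, 10.85, 11.95, 10.97 and 11.74 in the day 11 glands. Every young gland was about 1 unit or more below the dimmest mature gland, a 4.37-fold difference (-2.13 ± 0.25, adjusted p = 1.03e-06). The untreated day 4 glands averaged 8.30 ± 0.43, and the day 4 24 h glands were 1.1 ± 0.25 higher than those (adjusted p = 0.00998). CD36, a fatty acid transporter, averaged 6.71 ± 0.63 in the day 4 24 h glands and 8.88 ± 0.58 in the day 11 glands (-2.17 ± 0.34, adjusted p = 5.72e-05). ACSM1, a mitochondrial medium-chain acyl-CoA synthetase, was in the dim range in every young gland and averaged 3.32 ± 0.19 in the day 4 24 h glands and 7.60 ± 1.08 in the day 11 glands (-4.28 ± 0.52, adjusted p = 2e-06), the most negative difference among the genes named here. G0S2, an inhibitor of triglyceride lipase, went the other way at 8.95 ± 0.43 in the day 4 24 h glands and 7.81 ± 0.68 in the day 11 glands (1.14 ± 0.29, adjusted p = 0.00614).

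Of 56 genes of lysosomes and autophagy 17 were lower and 5 higher (9.02% and 17.2% of all genes), with a median of -0.10. The interval lay within 1 unit for 53 of them (89.7% of all genes). The lower count was 12 without day 4 24 h replicate 1, and the higher count was 3 without day 11 replicate 1. CTSF (509715), a cysteine cathepsin, had signals of 8.18, 9.10, 8.89, 9.72 and 8.74 in the day 4 24 h glands, against 11.31, 10.63, 11.24, 11.54 and 11.16 in the day 11 glands. The groups did not overlap, replicate 1 was lowest and replicate 4 highest among the young glands, and the difference was -2.25 ± 0.19, adjusted p = 6.51e-09. In the untreated day 4 glands CTSF averaged 7.86 ± 0.21, and the day 4 24 h glands were 1.06 ± 0.19 higher than those (adjusted p = 0.00251). MAN2B1, the lysosomal alpha-mannosidase, was lower (-1.60 ± 0.20, adjusted p = 2.66e-06), and so was PSAP, the precursor of the saposins (-0.69 ± 0.08, adjusted p = 1.14e-06), with all 3 other PSAP probe sets called the same way. CTSL, another cathepsin, was among the 5 higher genes at 6.75 ± 0.50 in the day 4 24 h glands and 5.31 ± 0.62 in the day 11 glands (1.44 ± 0.34, adjusted p = 0.00303).

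Part of the complement and macrophage genes were lower as well, and the young glands differed widely in them. Of 19 complement genes 6 were lower and none higher, and of 16 macrophage markers 3 were lower and none higher (9.02% and 17.2% of all genes). The medians were -0.41 and -0.43. Without day 4 24 h replicate 1 the counts of lower genes were 4 and 2, the latter near the share over all genes. C1QB (617435), a chain of the first complement component that macrophages make, had signals of 6.35, 7.74, 7.78, 7.99 and 6.41 in the day 4 24 h glands, against 8.55, 9.33, 8.68, 9.64 and 9.44 in the day 11 glands. Replicates 1 and 5 lay more than 1 unit below the other 3 young glands, and all 5 were below every mature gland (-1.87 ± 0.38, adjusted p = 0.000699). C1QC and C1QA, the other chains, were lower too (-1.78 ± 0.36, adjusted p = 0.000759 and -1.43 ± 0.32, adjusted p = 0.00205). The mean level of the macrophage list was 5.97, 6.85, 6.99, 7.08 and 6.29 in day 4 24 h replicates 1 to 5, 6.11 to 6.30 in the untreated day 4 glands and 6.87 to 7.35 in the day 11 glands. Replicates 3 and 4 thus lay inside the mature range and replicate 1 below every untreated young gland. STAB1, a scavenger receptor of macrophages and sinusoidal endothelium, was lower (-1.02 ± 0.17, adjusted p = 9e-05). CD14 and FCER1G, markers of myeloid cells, differed by -0.07 and 0.07, with intervals of -0.61 to 0.47 and -0.48 to 0.62. In whole tissue, fewer cells of a type and less RNA per cell cannot be told apart.

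Of 20 genes of antigen presentation 4 were lower and 1 was higher (9.02% and 17.2% of all genes), with a median of -0.45. The lower count was 1 without day 4 24 h replicate 1. B2M, the light chain of class I molecules, was lower in every young gland, 12.45 ± 0.13 in the day 4 24 h glands and 13.27 ± 0.29 in the day 11 glands (-0.82 ± 0.13, adjusted p = 6.04e-05). The class II genes BOLA-DRA and BOLA-DMB were lower (-0.80 ± 0.24, adjusted p = 0.0167 and -0.91 ± 0.26, adjusted p = 0.0147), calls that were lost without replicate 1. IFI30, a lysosomal thiol reductase of antigen processing, was higher at 10.72 ± 0.12 in the day 4 24 h glands and 9.31 ± 0.31 in the day 11 glands (1.41 ± 0.13, adjusted p = 1.6e-08). Of 44 chemokines and cytokines 4 were higher and 3 lower, smaller shares than over all genes, and the rest were not called. The lower count was 1 without day 4 24 h replicate 2. CCL21 (511112), the chemokine of lymphatic vessels that attracts lymphocytes and dendritic cells, had signals of 6.00, 7.36, 7.62, 7.29 and 6.40 in the day 4 24 h glands, against 10.16, 10.37, 9.53, 8.83 and 10.37 in the day 11 glands. The groups were more than 1 unit apart, a 7.54-fold difference (-2.91 ± 0.34, adjusted p = 1.03e-06), and the untreated day 4 glands averaged 7.67 ± 0.50. MMRN1, an adhesive protein also found in lymphatic endothelium, was lower (-2.09 ± 0.51, adjusted p = 0.00429). CXCL12, a chemokine of stromal cells, and IL33, an alarmin cytokine, were higher, by 1.32 ± 0.24 (adjusted p = 0.000267) and 1.37 ± 0.23 (adjusted p = 0.000107). For IL33 the mean over its probe sets gave 0.68 (adjusted p = 0.00456). CCL2, which attracts monocytes, was not called (-0.81 ± 0.32, adjusted p = 0.0786), except without day 11 replicate 5 or day 4 24 h replicate 4. The median difference was -0.01 over 8 B and plasma cell markers and -0.08 over 10 erythrocyte markers, 5 of each list being dim in the day 4 24 h glands. Of 23 T and NK cell markers, 11 of them dim, 1 was lower, a call that did not survive the removal of any 1 of 5 arrays. HBB, the adult beta globin, averaged 4.81 ± 0.31 in the day 4 24 h glands and 5.25 ± 0.51 in the day 11 glands. Of 12 markers of neutrophils, eosinophils and mast cells 2 were higher and 2 lower (17.2% and 9.02% of all genes), with a median of -0.03. The higher count was 1 without any single array but day 4 24 h replicate 5, and the lower count was 0 without day 11 replicate 3 and 1 without each of 6 other arrays. The 3 measured neutrophil markers had a mean level of 6.77 to 8.34 in the day 4 24 h glands, 6.74 to 8.10 in the untreated day 4 glands and 5.91 to 6.71 in the day 11 glands. S100A12, one of the 3, averaged 7.05 ± 1.16 in the day 4 24 h glands and 5.34 ± 0.38 in the day 11 glands (1.71 ± 0.46, adjusted p = 0.00852). The part of these cells in the other results was not tested.

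Most endothelial genes were lower in the day 4 24 h gland. Of 22 endothelial markers 14 were lower and 2 higher (1 without day 4 24 h replicate 1 or 3), and of 21 genes of the VEGF, angiopoietin and apelin axis 11 were lower and none higher, with medians of -0.51 and -0.39. FLT1 (503620), a receptor of vascular endothelial growth factor, had signals of 6.71, 6.89, 6.73, 6.30 and 6.18 in the day 4 24 h glands, against 7.47, 7.44, 7.93, 7.84 and 8.28 in the day 11 glands. All 5 young glands were below all mature ones (-1.23 ± 0.18, adjusted p = 2.25e-05), and 1 of 2 other FLT1 probe sets was called the same way. TIE1 and ROBO4, receptors of endothelial cells, were lower by the same amount (-0.98 ± 0.16, adjusted p = 0.000106 and -0.98 ± 0.12, adjusted p = 2.83e-06), again without overlap. Averaged over all its probe sets, FLT1 differed by -0.65 (adjusted p = 2.3e-05). ANGPT1, the ligand that stabilises vessels, was lower (-0.83 ± 0.15, adjusted p = 0.000201). VEGFA itself averaged 10.68 ± 0.51 in the day 4 24 h glands and 11.26 ± 0.14 in the day 11 glands (-0.58 ± 0.18, adjusted p = 0.0252), but its call was lost under 7 of the alternatives, 5 of which leave out a single array, and the difference was -0.38 both without day 4 24 h replicate 4 and as the mean of its probe sets. PECAM1, a junction protein of all endothelium, was not called: it averaged 8.22 ± 0.21 in the day 4 24 h glands and 8.38 ± 0.19 in the day 11 glands, with an interval of -0.47 to 0.16. CAVIN2, a caveolar protein of endothelium, was lower (-1.91 ± 0.24, adjusted p = 2.53e-06).

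PLVAP, which forms the diaphragms of fenestrated capillaries, was higher. PLVAP (524990) had signals of 8.15, 7.94, 7.26, 7.10 and 8.08 in the day 4 24 h glands, against 4.97, 5.44, 5.93, 6.15 and 5.67 in the day 11 glands. The lowest young gland, replicate 4, was nearly 1 unit above the highest mature gland, also replicate 4, a 4.21-fold difference (2.07 ± 0.30, adjusted p = 2.07e-05); its other probe set was not called, and the mean over both gave 1.24. The untreated day 4 glands were at the same level, 8.05 ± 0.29. The mean level of the whole endothelial list was 7.39 to 7.54 in the day 4 24 h glands, 7.39 to 7.77 in the untreated day 4 glands and 7.64 to 7.91 in the day 11 glands.

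Of the 27 keratin and junction genes, 6 were higher and 2 lower (17.2% and 9.02% of all genes), and 19 were not called. The list had a median of 0.05, and 11 members were dim in the day 4 24 h glands. The 2 lower calls were lost without day 11 replicate 4 or day 4 24 h replicate 5. Without day 4 24 h replicate 1 the counts were 4 higher and 1 lower. KRT18 (506480), an intermediate filament keratin of simple epithelia and granulosa cells, had signals of 12.40, 12.02, 11.72, 10.74 and 11.51 in the day 4 24 h glands, against 7.30, 7.65, 7.11, 6.72 and 7.59 in the day 11 glands. The groups were 3 units apart at their nearest arrays, a 21.2-fold difference (4.41 ± 0.29, adjusted p = 2.21e-11), the largest among the genes whose 5 values did not overlap. In the untreated day 4 glands KRT18 averaged 12.37 ± 0.29, and the difference between the day 4 groups was not called (adjusted p = 0.177). Its partner KRT8 was higher by 0.71 ± 0.14 (adjusted p = 0.000574), against a dim level in the mature gland, and averaged 4.89 ± 0.40 in the untreated day 4 glands. CDH2, the neural cadherin of granulosa and luteal cells, was higher by 1.71 ± 0.23 (adjusted p = 7.82e-06), and it was also 1.00 ± 0.23 higher than in the untreated day 4 glands (adjusted p = 0.0114). The 6 measured markers of surface epithelium, KRT8 and KRT18 among them, had a mean level of 5.58 to 5.90 in the day 4 24 h glands, 5.98 to 6.25 in the untreated day 4 glands and 4.79 to 4.90 in the day 11 glands. Of these, 2 were higher and none lower than on day 11, and their part in the result was not tested.

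Many matrix genes were also higher. Of 35 collagens and matrix glycoproteins 16 were higher and 5 lower (17.2% and 9.02% of all genes), with a median of 0.26. Without day 4 24 h replicate 1 the counts were 13 and 4, and without day 4 24 h replicate 2 the lower count was 3. Of the 6 fibroblast markers, which include collagens and proteoglycans of the matrix list, 4 were higher and none lower, with a mean level of 12.22 to 12.52 in the day 4 24 h glands, 12.05 to 12.39 in the untreated day 4 glands and 11.60 to 12.01 in the day 11 glands. Their part in the result was not tested. LOXL4 (281904), a lysyl oxidase that cross-links collagen, had signals of 10.27, 9.14, 9.42, 9.20 and 10.78 in the day 4 24 h glands, against 6.46, 7.17, 7.21, 6.75 and 7.03 in the day 11 glands. Every young gland was nearly 2 units or more above every mature gland (2.84 ± 0.40, adjusted p = 1.26e-05). EFEMP1, a fibulin of elastic fibres, was higher by 1.76 ± 0.27 (adjusted p = 3.22e-05), and by 0.79 when its probe sets were averaged (adjusted p = 0.000476). TNC, the matrix glycoprotein tenascin C, averaged 8.84 ± 1.12 in the day 4 24 h glands and 6.88 ± 1.25 in the day 11 glands; its values overlapped, and the call (adjusted p = 0.00716) was lost in the fit to the 10 arrays. The mean over the probe sets of TNC gave 1.05. LUM, the collagen-binding lumican, was alike (interval -0.26 to 0.30). PDGFRA, the platelet-derived growth factor receptor of stromal cells, was higher by 1.69 ± 0.20 (adjusted p = 1.22e-06), though neither of its 2 other probe sets was called and the mean over all its probe sets gave 0.45. Among proteases and their inhibitors, the gelatinase MMP9 was higher by 1.89 ± 0.38 (adjusted p = 0.00074) and the inhibitor TIMP3 was lower (-1.42 ± 0.14, adjusted p = 1.3e-07), both without overlap.

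Some growth factor, glycolysis and metal-binding genes were also higher in the young gland. AREG (538751), the growth factor amphiregulin, which the ovulatory surge induces in follicle cells, had signals of 7.44, 6.57, 7.05, 5.94 and 7.49 in the day 4 24 h glands, against 3.71, 3.84, 4.05, 3.2 and 4.01 in the day 11 glands. All mature values were dim and no young value was (3.13 ± 0.31, adjusted p = 8.14e-08). The insulin-like growth factor system as a list had 3 of 17 genes higher and 5 lower (17.2% and 9.02% of all genes), with a median of -0.17. IGFBP5, a binding protein of insulin-like growth factors, was higher by 2.12 ± 0.30 (adjusted p = 1.26e-05), while IGF2 itself was lower (-0.73 ± 0.16, adjusted p = 0.0018; -0.47 as the mean of its probe sets). Of 36 genes of hypoxia and glycolysis 17 were higher and 3 lower (17.2% and 9.02% of all genes), with a median of 0.27. LDHA, lactate dehydrogenase A, averaged 11.81 ± 0.52 in the day 4 24 h glands and 9.86 ± 0.18 in the day 11 glands (1.95 ± 0.17, adjusted p = 8.34e-09) on its brightest probe set, but of its 2 other probe sets 1 was not called and 1 was lower by 0.21, so the probe sets disagree and their mean gave 0.65. SLC16A3, a lactate exporter, was higher by 1.57 ± 0.19 (adjusted p = 2.37e-06; neither of 2 other probe sets was called, and the mean over all its probe sets gave 0.61) and P4HA2, a collagen prolyl hydroxylase, by 0.98 ± 0.14 (adjusted p = 1.24e-05). ALDOC, an aldolase, was lower (-1.70 ± 0.20, adjusted p = 9.74e-07). In the list of antioxidant genes and metallothioneins 7 of 38 genes were higher and 7 lower (17.2% and 9.02% of all genes), with a median of 0.03. The metallothioneins MT1A and MT2A were higher by 2.19 ± 0.39 (adjusted p = 0.000186) and 1.09 ± 0.27 (adjusted p = 0.004), and SOD3, the extracellular superoxide dismutase, was lower (-1.52 ± 0.19, adjusted p = 3.5e-06; -0.97 as the mean of its probe sets).

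**Figure D4:**
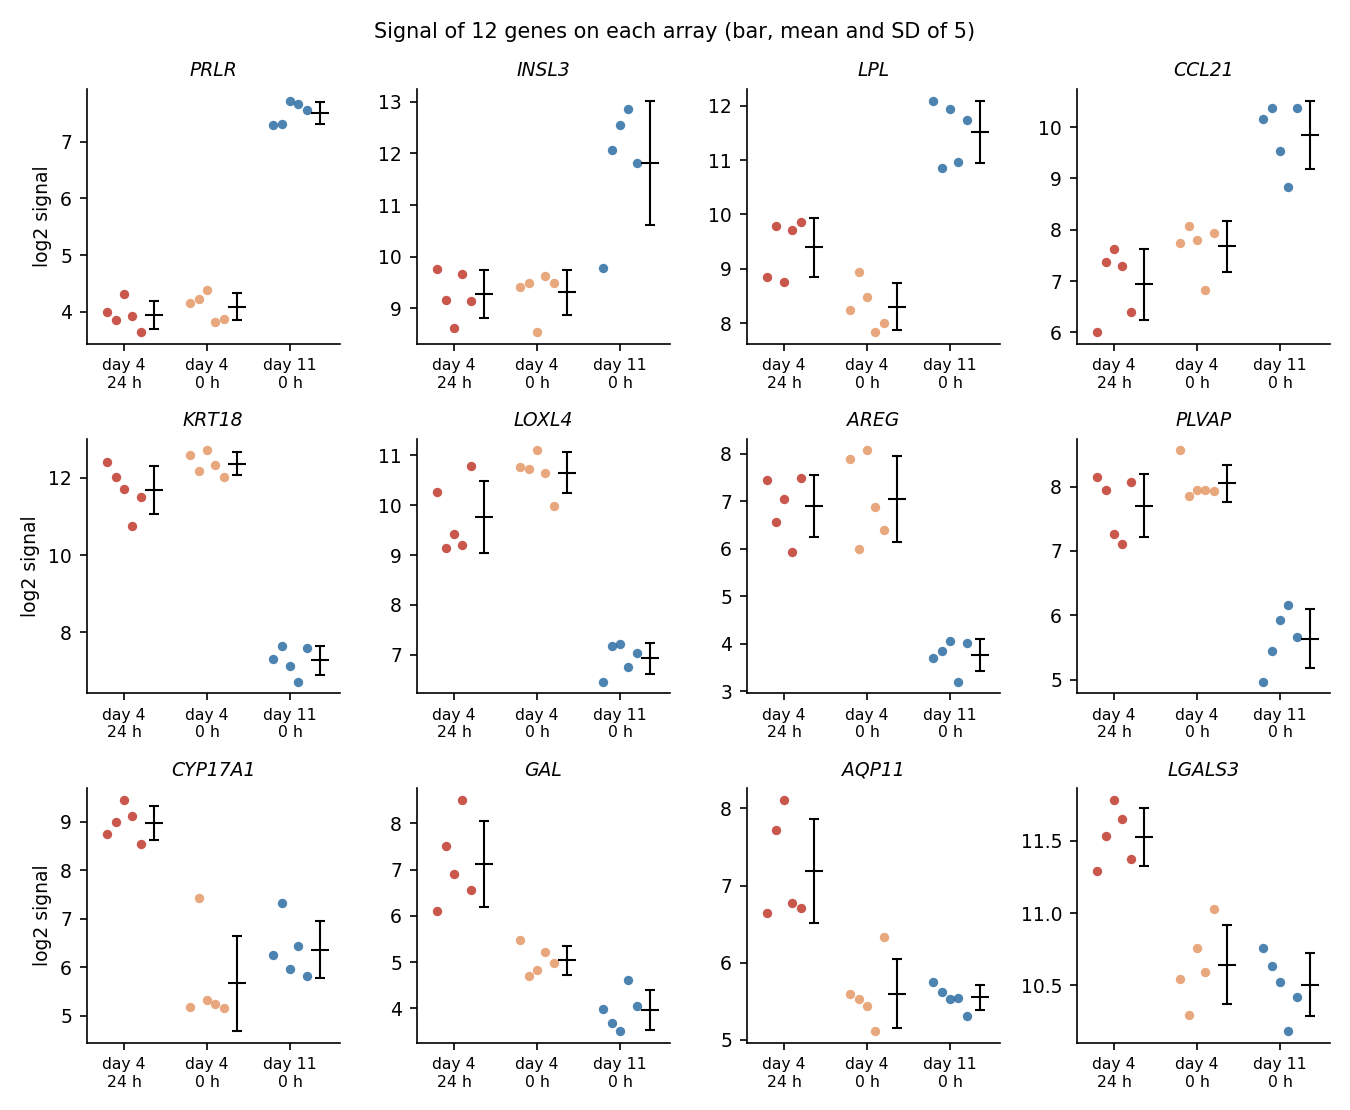
Log2 signal of 12 genes on each of the 5 day 4 24 h (red), 5 day 4 0 h (orange) and 5 day 11 0 h (blue) arrays, with the mean and SD beside each group; each panel has its own axis, which does not start at 0. The top row holds genes low in both day 4 groups, the middle row genes high in both, and the bottom row genes that stand higher in the day 4 24 h glands than in both untreated groups.

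Cell division genes divided the 5 young glands among themselves. Against the mature gland, 31 of 45 cell cycle and mitosis genes and 21 of 35 DNA replication genes were called higher, with medians of 1.02 and 0.57, and 1 replication gene was lower. These counts rested on single arrays. Without day 4 24 h replicate 1 they were 8 and 11, without replicate 5 they were 12 and 11, and without replicate 4 they were 41 and 29. Without day 11 replicate 4 they were 17 and 13, without day 11 replicate 2 they were 37 and 24, and in the fit to the 10 arrays alone they were 2 and 5. CCNB1 (327679), the cyclin that drives entry into mitosis, had signals of 9.78, 7.16, 7.85, 5.65 and 8.79 in the day 4 24 h glands, against 5.88, 7.43, 5.62, 5.40 and 5.46 in the day 11 glands. Replicate 1 lay with the untreated day 4 glands (9.69 ± 0.20), replicate 4 lay among the 4 dimmer mature glands, and the SD of the day 4 24 h group was the largest of the 3 (1.89 ± 0.45, adjusted p = 0.00339 for the group difference). The mean level of the 45 genes was 8.66, 7.0, 7.55, 6.11 and 8.05 in replicates 1 to 5, 8.59 to 8.82 in the untreated day 4 glands and 6.23 to 7.49 in the day 11 glands. The upper end of the mature range was day 11 replicate 2, and the other 4 mature glands were at or under 6.44.

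NCAPG and BIRC5 showed a similar order of replicates. NCAPG, a condensin subunit, had signals of 9.06, 7.42, 7.62, 6.83 and 8.64 in the day 4 24 h glands, against 6.18, 7.42, 6.38, 6.12 and 6.05 in the day 11 glands. BIRC5, the mitotic regulator survivin, had signals of 9.61, 7.79, 8.38, 6.73 and 9.04 in the day 4 24 h glands, against 6.83, 8.31, 6.68, 6.62 and 6.53 in the day 11 glands. In both, replicate 1 was highest and replicate 4 lowest of the young glands, and the groups overlapped, with day 11 replicate 2 the brightest mature gland (1.48 ± 0.28, adjusted p = 0.000434 for NCAPG and 1.32 ± 0.35, adjusted p = 0.00799 for BIRC5). The calls of BIRC5 and CCNB1 were lost in the fit to the 10 arrays. DUT, which keeps uracil out of DNA, was higher by 1.29 ± 0.20 (adjusted p = 4.76e-05), and TK1, thymidine kinase, by 1.13 ± 0.24 (adjusted p = 0.0013). GINS4, a subunit of the replicative helicase, did not overlap between the groups and averaged 7.21 ± 0.39 in the day 4 24 h glands and 6.19 ± 0.22 in the day 11 glands (1.02 ± 0.15, adjusted p = 1.94e-05). RRM2, a ribonucleotide reductase subunit, was called (1.41 ± 0.45, adjusted p = 0.0278) and lost the call in the fit to the 10 arrays and without any 1 of 7 of the 10 arrays.

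Against the untreated day 4 glands, 40 of the 45 cell cycle genes and 29 of the 35 replication genes were lower in the day 4 24 h glands (4.73% of all genes were lower in that contrast). Of the 15 genes furthest apart between the untreated day 4 and day 11 glands among those with an interval within 1 unit here, several act in division. HMGB2, a chromatin protein of dividing cells, averaged 9.67 ± 0.75 in the day 4 24 h glands, 10.67 ± 0.12 in the untreated day 4 glands and 9.22 ± 0.41 in the day 11 glands, and TYMS, thymidylate synthase, averaged 8.13 ± 0.70, 9.03 ± 0.16 and 7.56 ± 0.31 in the same order. TROAP and SKA3, proteins of the mitotic spindle, averaged 8.45 ± 0.80 and 7.47 ± 0.93 in the day 4 24 h glands, 9.57 ± 0.09 and 8.78 ± 0.13 in the untreated day 4 glands and 8.15 ± 0.66 and 7.02 ± 0.44 in the day 11 glands. Of other function were ZBTB16, a transcriptional repressor, at 4.93 ± 0.59, 6.36 ± 0.36 and 4.75 ± 0.34, and the quinone reductase NQO2, which stood higher in the mature gland, at 9.22 ± 0.55, 7.98 ± 0.36 and 9.60 ± 0.33 in that same order of groups. Since these genes were picked for their distance between the untreated groups, their values are a description. For each gene named here the SD was largest in the day 4 24 h glands, while the interval uses 1 spread estimated over all 6 groups. The interval can therefore be too narrow for these genes, and it does not show that they were alike in the day 4 24 h and day 11 glands. HMGB2, TYMS, SKA3 and NQO2 were each called different from day 11 without day 4 24 h replicate 4, TYMS also without day 11 replicate 2, without day 4 24 h replicate 2 and with the dimmest 30% of probe sets left out, and NQO2 also as the mean of its probe sets.

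**Figure D5:**
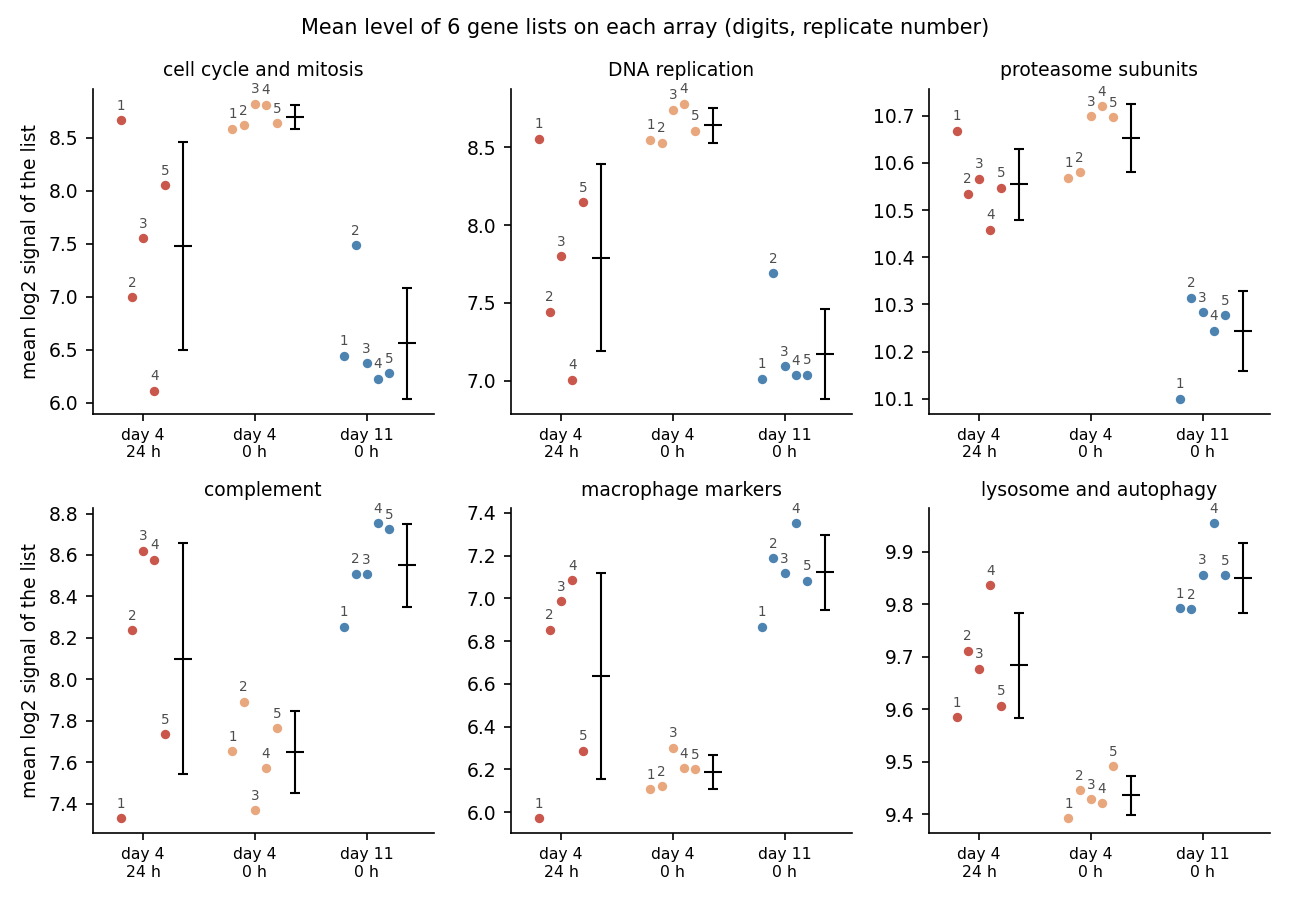
Mean log2 signal of 6 gene lists on each array (points, with replicate numbers; mean and SD of 5 arrays beside each group; each panel has its own axis, which does not start at 0) in the day 4 24 h (red), day 4 0 h (orange) and day 11 0 h (blue) glands. For the cell cycle list day 4 24 h replicate 1, at 8.66, lies with the untreated day 4 glands and replicate 4, at 6.11, below all day 11 glands.

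Proteasome, oxidative phosphorylation and ribosomal protein genes were higher by small amounts in many members. Of 35 proteasome genes 24 were higher and none lower, with a median of 0.37, and the count stayed between 22 and 27 under every alternative tried. The mean level of the list was 10.46 to 10.67 in the day 4 24 h glands, 10.57 to 10.72 in the untreated day 4 glands and 10.10 to 10.31 in the day 11 glands, so both young groups lay above all mature glands. PSMB5, a catalytic subunit, averaged 11.43 ± 0.09 in the day 4 24 h glands and 10.89 ± 0.15 in the day 11 glands (0.54 ± 0.08, adjusted p = 3.59e-05), and the assembly chaperone PSMG2 was higher by 0.64 ± 0.10 (adjusted p = 5.11e-05). Of 57 oxidative phosphorylation genes 25 were higher and none lower, with a median of 0.19, and of 61 cytosolic ribosomal proteins 21 were higher and none lower, with a median of 0.12. All 57 and all 61 intervals lay within 1 unit. These small shifts depended on scaling and on the fit: after quantile normalization 15 and 14 members were called higher, and 12 and 6 in the fit to the 10 arrays. Without day 11 replicate 1 the counts were 15 and 13, and the oxidative phosphorylation count was 16 without day 4 24 h replicate 1 or day 11 replicate 4. ATP5PO, a stalk subunit of ATP synthase, was higher without overlap (0.42 ± 0.06, adjusted p = 1.94e-05), and ATP5F1A, its alpha subunit, was alike (interval -0.19 to 0.12). Of 34 genes of fatty acid oxidation and the TCA cycle 5 were higher and 6 lower (17.2% and 9.02% of all genes), with a median of -0.01. There the higher count was 2 without day 4 24 h replicate 1 or 5 and 3 without day 4 24 h replicate 2 or day 11 replicate 3 or 4, and the lower count was 4 without day 11 replicate 4 or 5 or day 4 24 h replicate 5. Among 50 genes of ribosome biogenesis 16 were higher and 2 lower (17.2% and 9.02% of all genes). The higher count was 11 without day 4 24 h replicate 1 and 9 in the fit to the 10 arrays, both nearer the share over all genes. The lower count was 1 without day 11 replicate 4 or day 4 24 h replicate 5. FBL, the methylase of nucleolar RNA, was higher by 0.78 ± 0.14 (adjusted p = 0.000175).

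A further set of genes stood apart from both untreated groups, as CYP17A1 did. GAL (280799), the neuropeptide galanin, had signals of 6.11, 7.51, 6.92, 8.51 and 6.56 in the day 4 24 h glands, against 3.98, 3.68, 3.51, 4.61 and 4.06 in the day 11 glands. The mature values were all in or near the dim range and the young values all far above it (3.15 ± 0.34, adjusted p = 4.11e-07), with replicate 4 highest. The untreated day 4 glands averaged 5.04 ± 0.31, and the day 4 24 h glands were 2.08 ± 0.34 higher (adjusted p = 0.0013). CDH8, a cadherin, averaged 6.85 ± 0.19 in the day 4 24 h glands, 4.76 ± 0.92 in the untreated day 4 glands and 3.63 ± 0.68 in the day 11 glands, and it was called in both contrasts (adjusted p = 3.76e-07 against day 11 and adjusted p = 0.00145 against untreated day 4). CKB, the brain type creatine kinase, was higher than day 11 by 2.21 ± 0.21 (adjusted p = 4.85e-08) and than untreated day 4 by 1.02 ± 0.21 (adjusted p = 0.00651). SERPINA11, a serine protease inhibitor family member, was higher by 3.16 ± 0.30 (adjusted p = 3.77e-08) and 1.5 ± 0.30 (adjusted p = 0.00536) in the same contrasts.

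Where the untreated day 4 and day 11 glands differed by less than 1 unit over their whole interval, the day 4 24 h difference was largest for AQP11 and SPP1. Genes of this kind were picked for the size of that difference, so their values are a description. AQP11 (510038), an aquaporin of intracellular membranes, had signals of 6.65, 7.72, 8.11, 6.77 and 6.70 in the day 4 24 h glands, against 5.75, 5.62, 5.53, 5.54 and 5.31 in the day 11 glands. Replicates 2 and 3 were about 1 unit brighter than the other 3 young glands, none overlapped the mature glands, and the untreated day 4 glands averaged 5.60 ± 0.45 (1.64 ± 0.26, adjusted p = 4.87e-05 against day 11). SPP1 (281499), the secreted matrix and cytokine-like protein osteopontin, had signals of 9.73, 11.11, 10.69, 12.08 and 9.81 in the day 4 24 h glands, against 9.98, 9.56, 9.22, 8.33 and 8.12 in the day 11 glands. Replicates 1 and 5 of the young glands lay below the brightest mature gland, replicate 4 was highest at 12.08, and the difference was 1.64 ± 0.42, adjusted p = 0.00625. LGALS3, galectin 3, a lectin of macrophages and injured tissue, was higher in every young gland, 11.53 ± 0.20 in the day 4 24 h glands and 10.50 ± 0.22 in the day 11 glands (1.02 ± 0.14, adjusted p = 8.54e-06), with 10.64 ± 0.27 in the untreated day 4 glands. PLBD1, a phospholipase B-like lysosomal protein, and GATM, the first enzyme of creatine synthesis, were higher by 1.27 ± 0.30 (adjusted p = 0.00293) and 1.19 ± 0.25 (adjusted p = 0.00113).

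Secreted proteins and signalling genes completed the differences. SERPINA14, the uterine milk serpin, and F5, coagulation factor V, were higher by 3.52 ± 0.46 (adjusted p = 4.96e-06) and 3.12 ± 0.34 (adjusted p = 3.76e-07), both from a dim level in the mature glands. STRA6, a retinol uptake receptor, was higher without overlap, 9.04 ± 0.43 in the day 4 24 h glands and 6.04 ± 0.28 in the day 11 glands (3.00 ± 0.28, adjusted p = 1.8e-08), with its other probe set not called and a mean over both of 1.47. XCL1, a chemokine gene by the array's annotation, was bright in both groups and higher by 2.53 ± 0.32 (adjusted p = 3.91e-06), with day 11 replicate 2 the brightest mature gland. FGG, a fibrinogen chain, and TF, the iron carrier transferrin, were lower (-2.42 ± 0.45, adjusted p = 0.000329 and -2.38 ± 0.24, adjusted p = 1.38e-07). CREM, a cyclic AMP responsive transcription factor, was lower (-2.02 ± 0.27, adjusted p = 5.92e-06), as were 2 of its 5 other probe sets, and the mean over the probe sets gave -0.77. In the prostaglandin pathway 2 of 19 genes were higher and 3 lower (17.2% and 9.02% of all genes), and the higher count was 1 without any 1 of 5 arrays. PTGES, a prostaglandin E synthase, was higher by 1.16 ± 0.36 (adjusted p = 0.0216), and it lost that call when either day 4 24 h replicate 4 or day 11 replicate 3 was removed. SLCO2A1, the prostaglandin transporter, was lower (-1.07 ± 0.16, adjusted p = 2.87e-05). PTGS2, the inducible cyclooxygenase, was dim in all groups, and so no level of it can be read here. AGTR1, the angiotensin receptor, was lower (-1.14 ± 0.26, adjusted p = 0.00237), and EDN1, the vasoconstrictor endothelin, was not called (-0.13 ± 0.30, interval -0.75 to 0.50).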

How the data were processed

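Expression was measured with 1 one-color array per heifer in 30 heifers, 5 in each of 6 groups. The authors deposited log2 values, summarised per probe set with robust multi-array averaging (RMA) per the submitters' processing notes; its version is not given in the sources used here, and the deposited values were used without further scaling. Values ran from 1.80 to 14.35 and array medians from 6.01 to 6.16. The number of arrays, with no detection calls used, limits the precision.

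Of 24128 probe sets, 112 controls were left out. In GEO's platform annotation 13292 of the 24016 others had 1 gene symbol, 86 had several and 10638 had none, and those with several or none were left unnamed. A gene with several probe sets was represented by the brightest of them on average. limma 3.58.1 in R 4.3.3 fitted the 6 groups in 1 model, with 24 residual degrees of freedom, eBayes moderation and Benjamini-Hochberg adjustment over the 24016 probe sets. Calls needed an adjusted p under 0.05. Data were simulated for the day 4 24 h against day 11 comparison over 24016 probe sets. The same fit found 59.5% of the altered probe sets at 0.5 log2 units, 96% at 1 unit and 99.5% at 2 units, with 5.03% of the calls false. The simulated noise was independent between probe sets and had the same SD in all 6 groups. Shifts shared by many genes of an array, as seen among the day 4 24 h glands, were not simulated, so these rates may not hold for the real data.

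The members and the 43 gene lists (1113 distinct measured genes) were chosen with earlier results of these data known. Genes named were drawn from the 15 highest and 15 lowest called genes without overlap between groups, from each list (at most 4 called genes by size of difference, and 2 alike genes), from a panel of luteal genes, from the 15 genes furthest apart between the untreated groups among those alike here, and from the 10 largest differences where the untreated groups were alike. A gene counted as alike where its 95% interval in the contrast concerned lay within 1 log2 unit. Only for the alike genes drawn from the lists was it also required that neither group mean was dim. NR5A1 and NR0B1 are named outside this rule, after their values were seen. Nothing says whether replicate numbers mark a shared batch. The p-values of the fit set each difference against the spread between heifers within groups, estimated over all 6 groups and not from the 10 arrays alone. The correlation of same-numbered arrays' deviations lay between -0.046 and 0.151 over the 5 numbers, so the numbers were not taken to pair the arrays.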

Additional observations from a re-analysis of the deposited data

Results flagged for a closer look

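In 19 of 236 group values examined, 1 array lay far from the other 4 of its group by Dixon's test; chance gives about 1 such array in 20 groups. No explanation was weighed.

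Among the day 11 glands, replicate 2 stood above the other 4 for 4 genes of cell division and for CKB. Its signal was 7.43 for CCNB1 (the others 5.40 to 5.88), 8.31 for BIRC5 (6.53 to 6.83), 7.42 for NCAPG (6.05 to 6.38), 10.32 for DUT (9.28 to 9.44) and 10.19 for CKB (8.78 to 9.0). Day 11 replicate 4 was the brightest for LHCGR at 8.92 (7.48 to 7.88), for PECAM1 at 8.70 (8.24 to 8.34) and for PTGS2 at 4.61 (3.94 to 4.12), the last within the dim range in the other arrays. CAVIN2 was low at 8.39 in day 11 replicate 3 (8.80 to 8.94), and TIE1 was low at 8.02 in day 11 replicate 5 (8.59 to 8.67).

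Among the day 4 24 h glands, replicate 3 was low for CDH2 at 9.46 (10.13 to 10.36), IGFBP5 at 9.53 (10.71 to 11.01) and XCL1 at 12.70 (13.08 to 13.14), and high for IL33 at 6.65 (5.77 to 6.02). Replicate 2 was high for ANGPT1 at 5.44 (4.84 to 4.97) and low for CKB at 10.96 (11.40 to 11.54). Replicate 4 was high for CDH8 at 7.17 (6.72 to 6.82) and low for G0S2 at 8.19 (9.03 to 9.28), and replicate 5 was high for CYP21A2 at 7.55 (5.92 to 6.33). Replicate 1, which lay closest to the untreated day 4 glands over all probe sets, met the criterion for none of these genes.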

How the results depend on the processing

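Of the 4606 probe sets called, 2539 passed an adjusted p under 0.01 (1438 higher and 1101 lower), and 561 differed by at least 1 log2 unit (282 higher and 279 lower). Leaving out 1 array at a time gave between 3431 and 4922 called probe sets, between 1902 and 2860 higher and between 1513 and 2069 lower. The fit to the 10 arrays alone called 3392. With array medians subtracted, 2431 probe sets were higher and 2109 lower, and with quantile normalization 2418 and 2140. The replicate numbers could not be shown to pair the arrays, and 2 of 5 day 4 24 h arrays correlated best with their own number. With the replicate block 4951 probe sets were called. The number of list members called was 397, and between 284 and 414 with 1 array left out. Of 117 genes named in the report, 92 were called and 83 of these kept the call under each of 19 alternatives. Of the 25 others, 6 were called under at least 1. NR5A1 and NR0B1, named outside the rule, are not among the 117. The searches of promoters for motifs planned at the start were not run, because no sequence was used here. The intervals that carry likeness use 1 spread estimated over all 6 groups, and signals near the bottom of the array's range limit what can be said of dim genes.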
